A study of Mus musculus with 8 samples.

Results

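The 10 genes described here are the core of the circadian clock as transcripts: the activators Arntl (BMAL1) and Clock, the period genes Per1, Per2 and Per3, the cryptochromes Cry1 and Cry2, the nuclear receptors Nr1d1 and Nr1d2 (REV-ERBα and REV-ERBβ), and Dbp, a clock-controlled transcription factor. They were measured in the tibialis anterior, a leg muscle, of 8 male C57BL/6 mice aged 8 weeks. The members were the non-control probes whose gene name on the array was 1 of these 10 symbols, which gave 18 probes for 10 of the 27398 gene names of the array design. All 10 genes had a probe kept by the filter on dim probes, among 16016 genes tested.

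The mice were 4 Prep1deltaSM animals, in which Prep1 (gene Pknox1, a homeodomain transcription factor) was ablated in skeletal muscle, and 4 Prep1f/+ animals. The label Prep1f/+ stands for animals with a floxed (f) and a + allele, while the series' design text calls the same animals flox mice. The labels used here do not name the Cre line or promoter behind the deletion, the number of founders, or the time of day at which each muscle was taken. Total RNA of each muscle was labelled with Cy3 and read on a separate Agilent 1-colour array, so that each group had 4 arrays and nothing in the labels pairs a Prep1deltaSM mouse with a Prep1f/+ mouse.

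In the molecular clock, the proteins of Arntl and Clock pair on E-box sequences and drive transcription of the Per and Cry genes, of Nr1d1 and Nr1d2, and of Dbp. PER and CRY proteins then repress that pair, and the REV-ERB receptors repress Arntl through ROR elements, so Arntl transcript peaks at roughly the opposite time of day from Dbp and the Per transcripts. Skeletal muscle has such a clock in its fibres, and many of its metabolic genes are rhythmic. A single collection time gives 1 point of each rhythm per animal.

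Start-site windows of the members are shown first, searched for the motif classes of the loop (E-box, D-box, ROR element). The genes compared afterwards were grouped by their known place in the loop and not by these matches, which cut across those groups. RefSeq sequence of assembly GRCm38.p6, from 250 bases before to 50 bases after a start site, was at hand for 9 of the 10 members (13 windows, 300 bases each). Per2 had no entry. The letters searched, on both strands and with no matches overlapping in the members' windows, were CACGTG (E-box), TTANGTAA (D-box), AGGTCA (core of the ROR element) and TGACGTCA (cAMP response element). An E-box was found in 2 of the 13 windows (Cry1 and Per1) and in 7.15% of 32851 windows of all genes. The D-box letters were in 1 window (Per3, with 2 matches) and in 2.32% of all windows. AGGTCA was in 4 windows (Arntl, Clock, Nr1d2 and Per1) and in 16.3% of all windows. TGACGTCA was in 0 member windows and in 1.79% of all windows. The 5 windows below, read 5′ to 3′ on the gene's strand with matches in capitals, are those of the Arntl, Per1, Per3, Cry1 and Nr1d2 genes. The Arntl window is chr7:113207261-113207560 (plus strand), with an AGGTCA that starts at base 32 after the start site. The Per1 window is chr11:69098699-69098998 (plus strand), with an E-box whose first base lies 166 bases before the start site and an AGGTCA 137 bases before it. The Per3 window is chr4:151044616-151044915 (minus strand), with D-boxes 205 and 158 bases before the start site. The Cry1 window is chr10:85185005-85185304 (minus strand), with an E-box 60 bases before the start site. The Nr1d2 window is chr14:18239057-18239356 (minus strand), with an AGGTCA 77 bases before it.
Arntl: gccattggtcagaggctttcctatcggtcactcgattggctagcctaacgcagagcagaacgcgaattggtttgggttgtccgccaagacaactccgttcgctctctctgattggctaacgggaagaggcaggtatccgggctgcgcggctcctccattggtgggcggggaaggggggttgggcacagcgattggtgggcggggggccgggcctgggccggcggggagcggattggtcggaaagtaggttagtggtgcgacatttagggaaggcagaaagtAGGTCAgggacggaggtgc
Per1: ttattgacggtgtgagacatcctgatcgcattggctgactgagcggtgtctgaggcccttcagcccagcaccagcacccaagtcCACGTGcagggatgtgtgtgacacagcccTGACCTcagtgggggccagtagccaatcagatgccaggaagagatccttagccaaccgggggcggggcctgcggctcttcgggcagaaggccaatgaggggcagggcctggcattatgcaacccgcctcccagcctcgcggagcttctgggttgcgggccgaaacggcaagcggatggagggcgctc
Per3: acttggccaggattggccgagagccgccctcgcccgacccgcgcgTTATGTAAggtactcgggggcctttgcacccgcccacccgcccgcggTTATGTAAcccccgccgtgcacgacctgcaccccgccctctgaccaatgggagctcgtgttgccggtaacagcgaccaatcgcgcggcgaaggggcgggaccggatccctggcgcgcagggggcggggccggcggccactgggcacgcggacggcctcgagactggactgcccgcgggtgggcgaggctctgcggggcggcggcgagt
Cry1: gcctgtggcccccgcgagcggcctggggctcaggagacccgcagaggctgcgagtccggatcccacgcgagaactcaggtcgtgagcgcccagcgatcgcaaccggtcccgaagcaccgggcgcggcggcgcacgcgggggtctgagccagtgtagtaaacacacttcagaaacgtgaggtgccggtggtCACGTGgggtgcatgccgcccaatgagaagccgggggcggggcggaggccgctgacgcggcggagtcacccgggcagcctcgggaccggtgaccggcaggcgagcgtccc
Nr1d2: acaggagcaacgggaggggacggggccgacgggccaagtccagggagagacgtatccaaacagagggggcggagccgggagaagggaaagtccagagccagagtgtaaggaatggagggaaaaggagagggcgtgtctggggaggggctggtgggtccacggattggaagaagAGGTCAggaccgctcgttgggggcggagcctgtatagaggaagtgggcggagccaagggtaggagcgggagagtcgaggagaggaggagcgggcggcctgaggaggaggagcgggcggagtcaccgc

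Every level below is a log2 signal of 1 probe on the scale of its own array, with the 75th percentile of that array set to 0, so that a probe at 0 has the signal of that percentile. A level describes a probe and is not set against that of another probe. The spots well above background numbered 23787 to 27123 per array of 43379, and the 75th percentiles of the arrays ran from 139 to 197 intensity units. Fast-fibre markers such as Ckm and Acta1 were detected in every muscle (10 of 10 markers tested), and their list's mean, centred per gene, was −0.04 to 0.07 in Prep1deltaSM and −0.14 to 0.08 in Prep1f/+ muscles. In whole muscle, fewer cells of a type and less RNA per cell cannot be told apart. Pknox1, the ablated gene, was −1.84, −2.08, −2.28 and −1.96 in Prep1deltaSM muscles, against −0.09, −0.31, −0.21 and −0.51 in Prep1f/+ muscles. Its difference of −1.76 (SE 0.13, limma adjusted p = 0.0072) was the only one among 16016 genes to pass the adjusted threshold of 0.05; with slide as a block its adjusted p was 0.062.

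None of the 10 clock genes differed between genotypes by that test, beside 0.00624% of all genes. At an unadjusted limma p under 0.05, 2 of 10 members were counted, Cry1 and Cry2, both higher in Prep1deltaSM, against 15.9% of all genes in either direction and 5.54% in the higher direction. The same 2 genes were those whose 4 Prep1deltaSM values and 4 Prep1f/+ values did not overlap, which held for 10.5% of all genes and for 3.72% in the higher direction. The median log2 difference of the 10 members was 0.42, beside −0.07 over all genes, with 7 members above 0 and 3 below. Without Prep1f/+ replicate 1 that median was 0.07, again beside −0.07 over all genes, with 6 members above 0 and 4 below. The array of Prep1f/+ replicate 1 gave a value outside the range of the other 7 arrays for 9 of the 10 members, all but Cry1. Across all genes that array was outside the range of the other 7 for 28.8%.

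**Figure D1:**
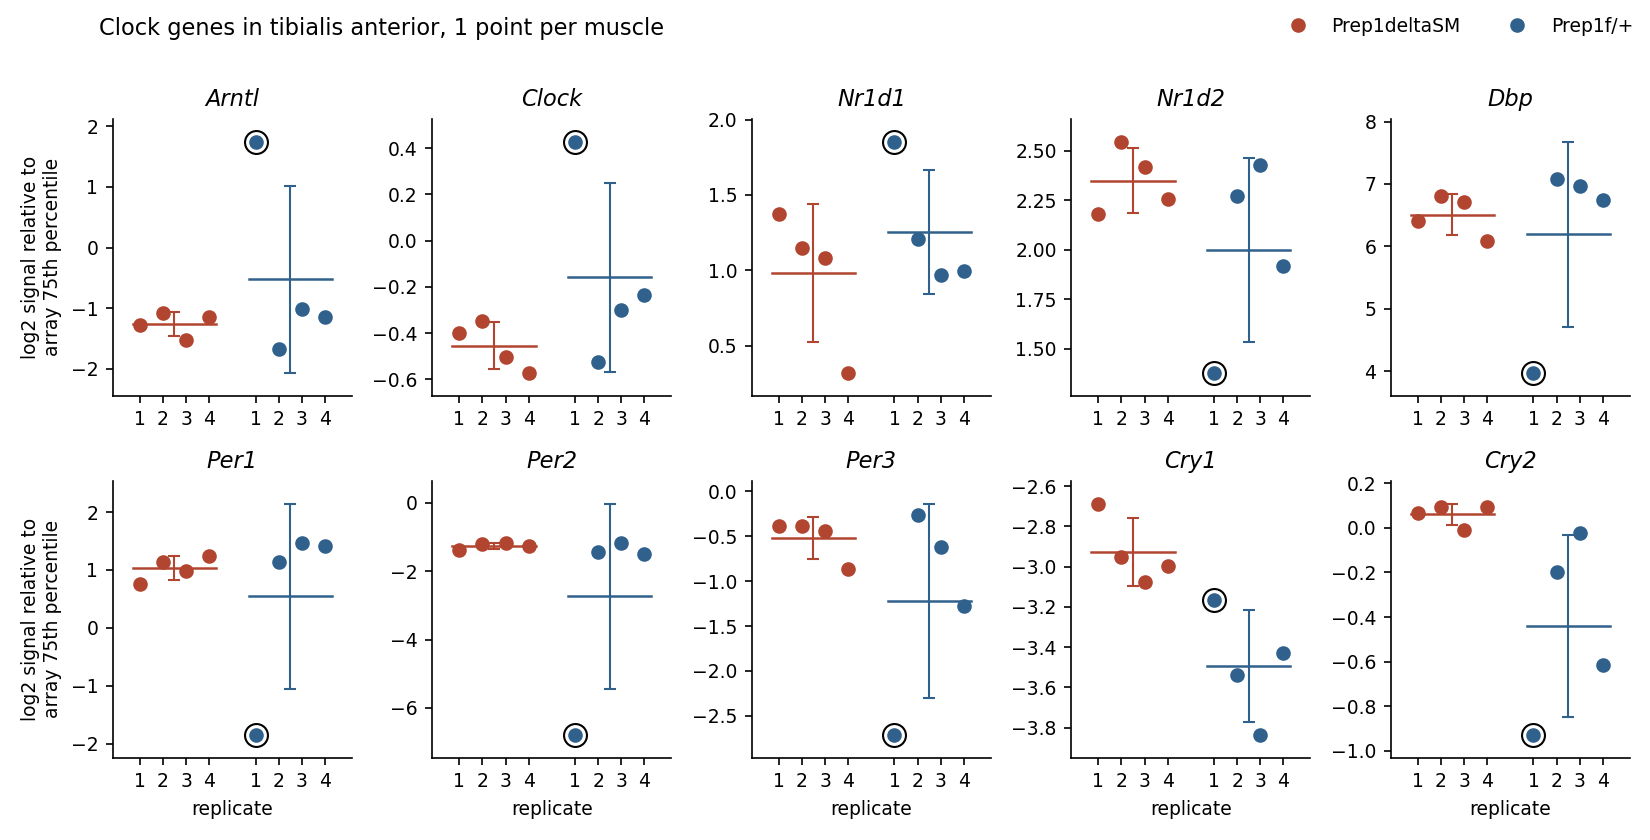
Level of each of the 10 clock genes in each muscle (log2 signal relative to the array's 75th percentile, each panel with its own y axis), Prep1deltaSM on the left and Prep1f/+ on the right, with bars at the group mean ± SD. The first Prep1f/+ muscle stands apart from the other 7 in Arntl at 1.74, in Per1 at −1.85 and in Dbp at 3.98, and its Per2 value of −6.78 was not well above background.

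Of the activators, Arntl encodes BMAL1, the partner that the clock cannot run without. Its level (probe at chr7:120456978-120457037, mm9) was −1.28, −1.08, −1.52 and −1.14 in Prep1deltaSM muscles, against 1.74, −1.68, −1.01 and −1.15 in Prep1f/+ muscles. A single Prep1f/+ muscle was high, and the other 3 lay among the Prep1deltaSM values. The genotype difference was −0.73 (SE 0.66, 95% interval −2.24 to 0.78, limma adjusted p = 0.605), and without Prep1f/+ replicate 1 it was 0.02 (−0.41 to 0.46, adjusted p = 0.965). Arntl on that array was 2.90 above the median of the other 7, or 7.45-fold, which ranked 20 among 16016 genes by size of deviation.

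Clock encodes the DNA-binding partner of BMAL1. Its level was −0.40, −0.35, −0.50 and −0.57 in Prep1deltaSM muscles, against 0.43, −0.53, −0.30 and −0.24 in Prep1f/+ muscles. Prep1f/+ replicate 1 was again the highest of the 8, at 1.78-fold the median of the others, and the groups overlapped. The difference was −0.30 (SE 0.19, limma adjusted p = 0.467) and −0.10 without that muscle. The other 3 Clock probes gave genotype differences of 0.17, 0.32 and −0.19, and all 3 were above the median of the other arrays in Prep1f/+ replicate 1, by 0.52, 0.14 and 0.46.

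The period genes encode the PER proteins, which enter the nucleus with the cryptochromes and repress the activators. Per1 (probe at chr11:68922878-68922937, mm9) was 0.77, 1.13, 0.98 and 1.24 in Prep1deltaSM muscles, against −1.85, 1.14, 1.47 and 1.41 in Prep1f/+ muscles. The first Prep1f/+ muscle was low, at 7.92-fold below the median of the other 7 (rank 18 of 16016 genes). The other 3 Prep1f/+ values were above 3 of the 4 Prep1deltaSM values. The difference was 0.49 with all arrays (SE 0.68, limma adjusted p = 0.75) and −0.31 without Prep1f/+ replicate 1 (95% interval −0.65 to 0.03, adjusted p = 0.378), so its sign turned on that muscle.

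Per2 was not well above background in 1 muscle on its main probe. Its probe with the brighter signal (chr1:93313046-93313105, mm9) was −1.39, −1.22, −1.19 and −1.26 in Prep1deltaSM muscles, against −6.78, −1.46, −1.19 and −1.51 in Prep1f/+ muscles. The first Prep1f/+ value was not well above background, so only a bound holds: at the lowest signal of a probe well above background on that array (−4.62), Per2 was at least 10.3-fold lower than the median of the other 7 muscles. The other 7 values lay within −1.51 to −1.19, and the genotype difference was 1.47 (SE 1.14, limma adjusted p = 0.547), or 0.12 without that muscle (−0.14 to 0.38, adjusted p = 0.642). The size of the difference rested on that dim value: it was 0.93 with signals raised to each array's floor, 0.77 with the gene's probes averaged and 0.06 from the dimmer probe, which was well above background on all 8 arrays. The dimmer Per2 probe (chr1:93336538-93336597) was −2.83, −2.77, −2.83 and −2.55 in Prep1deltaSM muscles, against −3.65, −2.78, −2.97 and −1.84 in Prep1f/+ muscles. Prep1f/+ replicate 1 was again the lowest there, by 0.88 under the median of the others, a much smaller step than on the brighter probe.

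Per3, whose window above carries the D-boxes, was −0.39, −0.38, −0.44 and −0.87 in Prep1deltaSM muscles, against −2.71, −0.26, −0.62 and −1.28 in Prep1f/+ muscles. Lowest was Prep1f/+ replicate 1, 4.82-fold under the median of the other 7 (rank 42), followed by the fourth replicate of each group. The difference was 0.70 (SE 0.47, limma adjusted p = 0.489) and 0.20 without Prep1f/+ replicate 1 (−0.38 to 0.77, adjusted p = 0.736).

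The cryptochromes, the partners of PER in repression, were the only members with non-overlapping groups. Cry1 (probe at chr10:84606495-84606554, mm9) was −2.69, −2.95, −3.08 and −2.99 in Prep1deltaSM muscles, against −3.16, −3.54, −3.84 and −3.43 in Prep1f/+ muscles. Every Prep1deltaSM value was above every Prep1f/+ value, with means of −2.93 ± 0.17 and −3.49 ± 0.28 (SD, n = 4 each). The difference of 0.57 (SE 0.15, 95% interval 0.22 to 0.91) had an unadjusted limma p of 0.00547 and an adjusted p of 0.182, and the two-sided exact permutation p over 70 assignments was 0.0286, the smallest that 4 against 4 allows. Prep1f/+ replicate 1 did not stand apart, being 0.09 under the median of the others, and without it the difference was 0.67 (adjusted p = 0.190). Within the 4 slides, each of which held an array of each genotype, the differences were 0.17, 0.85, 0.89 and 0.35. The second Cry1 probe (chr10:84594731-84594790) did not share the separation: it was −3.53, −3.54, −4.12 and −3.07 in Prep1deltaSM muscles, against −2.91, −3.92, −3.60 and −3.24 in Prep1f/+ muscles, a difference of −0.15 with overlapping groups. With a gene's probes averaged, the Cry1 difference was 0.21 (limma adjusted p = 0.606). The probe used was dim, though well above background on all 8 arrays. With normexp and quantile normalization its difference was 0.11 (limma adjusted p = 0.294), a setting in which that of Pknox1 was also smaller, at −0.89.

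Cry2 (probe at chr2:92244363-92244422, mm9) was 0.07, 0.09, −0.01 and 0.09 in Prep1deltaSM muscles, against −0.93, −0.20, −0.02 and −0.62 in Prep1f/+ muscles. The groups met without crossing, at −0.01 and −0.02, and the Prep1f/+ muscles were spread more widely, with means of 0.06 ± 0.05 and −0.44 ± 0.41 (SD, n = 4 each). The difference was 0.50 (SE 0.19, 95% interval 0.08 to 0.93, unadjusted limma p = 0.0263, adjusted p = 0.258, exact permutation p = 0.0286). Part of it lay in Prep1f/+ replicate 1, the lowest of the 8, and without that muscle it was 0.34 (adjusted p = 0.350). Within slides it was 1.02, 0.26, 0.11 and 0.61, with the first slide holding Prep1f/+ replicate 1. The second Cry2 probe gave a difference of 0.46 with overlapping groups (limma adjusted p = 0.351) and 0.20 without that muscle.

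Nr1d1 and Nr1d2 encode the REV-ERB receptors, repressors of Arntl. Nr1d1 was 1.38, 1.15, 1.08 and 0.32 in Prep1deltaSM muscles, against 1.85, 1.21, 0.97 and 0.99 in Prep1f/+ muscles. Prep1f/+ replicate 1 was the highest, at 1.70-fold the median of the others, and Prep1deltaSM replicate 4 was the lowest. The difference was −0.27 (SE 0.27, limma adjusted p = 0.637), or −0.07 without Prep1f/+ replicate 1. The other Nr1d1 probes gave differences of −0.57 (limma adjusted p = 0.217) and −0.50 (limma adjusted p = 0.324), both with overlapping groups. Without Prep1f/+ replicate 1 their differences were −0.44 and −0.34. On all 3 probes Prep1f/+ replicate 1 was above the median of the others, by 0.77, 0.80 and 0.91.

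Nr1d2 moved the other way on that array. It was 2.18, 2.55, 2.42 and 2.25 in Prep1deltaSM muscles, against 1.38, 2.27, 2.43 and 1.92 in Prep1f/+ muscles. Prep1f/+ replicate 1 was the lowest of the 8, 1.85-fold under the median of the others, while its Nr1d1 was the highest. The genotype difference was 0.35 (SE 0.22, limma adjusted p = 0.456), and 0.14 without that muscle.

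Dbp, the output gene whose protein acts on D-boxes, was far above the 75th percentile in every muscle. Its level (probe at chr7:52965265-52965324, mm9) was 6.41, 6.81, 6.72 and 6.08 in Prep1deltaSM muscles, against 3.98, 7.08, 6.97 and 6.74 in Prep1f/+ muscles. Prep1f/+ replicate 1 was 6.80-fold under the median of the other 7 (rank 22 of 16016 genes). Of the other 7, the 3 Prep1f/+ values included the highest and none of the lowest 3. The difference was 0.31 with all arrays (SE 0.65, limma adjusted p = 0.835) and −0.42 without Prep1f/+ replicate 1 (95% interval −0.87 to 0.02, unadjusted p = 0.0572, adjusted p = 0.361). As with Per1, the sign of the Dbp difference turned on 1 muscle.

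**Figure D2:**
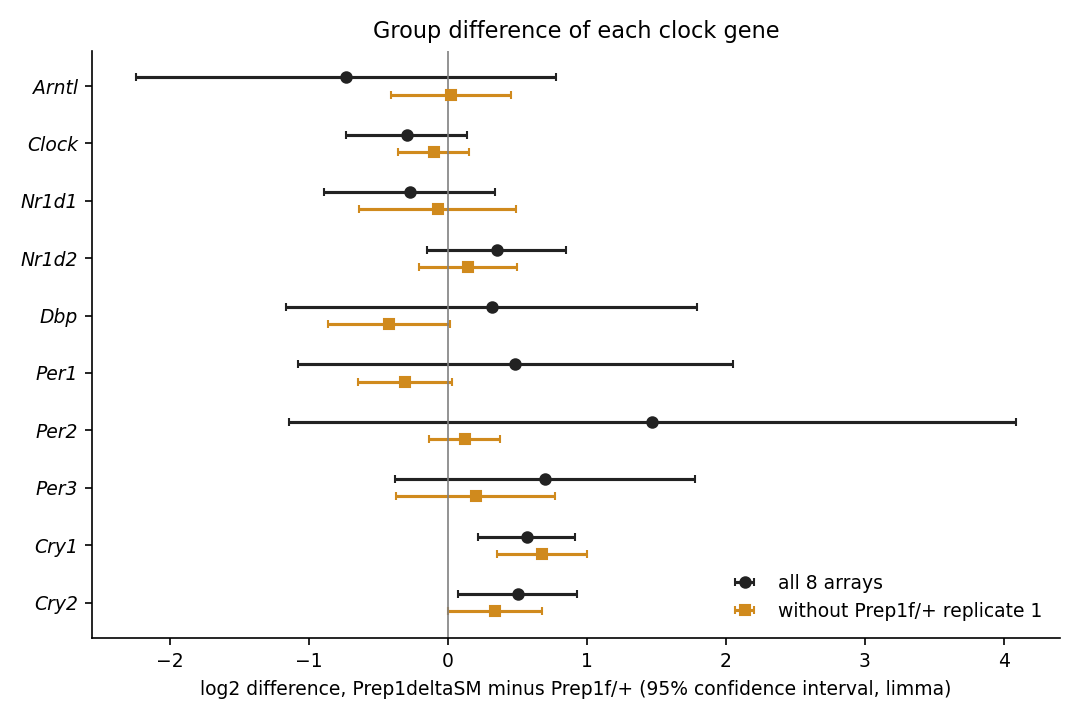
Genotype difference of each clock gene (Prep1deltaSM minus Prep1f/+, log2) with its 95% interval from limma, with all 8 arrays and without Prep1f/+ replicate 1. With all arrays the intervals of Arntl, Per1, Per2, Per3 and Dbp are wide, and without that muscle they narrow around differences of 0.02, −0.31, 0.12, 0.20 and −0.42.

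The deviations in Prep1f/+ replicate 1 ran in both directions. Arntl, Clock and Nr1d1 were above all other muscles, while Per1, Per2, Per3, Nr1d2, Cry2 and Dbp were below all others. Cry1 lay inside their range, at 0.09 under the median on the probe used and 0.63 above it on the second probe. By the ratio of its gap to the nearest Prep1f/+ muscle over the range of that group (Dixon's test for 4 values), Prep1f/+ replicate 1 was set apart for 3 of 10 members (Per1, Per2 and Dbp) and for 1.42% of all genes. Of the 8 member probes other than the one used for their gene, 7 deviated on that array in the same direction as the one used, the exception being the second Cry1 probe. By more than 1 log2 unit from the median of the other 7 arrays, 5 of 10 members deviated in Prep1f/+ replicate 1 (Arntl, Per1, Per2, Per3 and Dbp), against 3.24% of all genes. On each of the other 7 arrays 0 members did so, against 1.3%, 1.5%, 1.55% and 3.45% of all genes on the Prep1deltaSM arrays and 1.67%, 1.53% and 4.38% on the other Prep1f/+ arrays. The fourth array of each genotype had more genes that far from the rest than Prep1f/+ replicate 1, and none of them was a clock member.

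**Figure D3:**
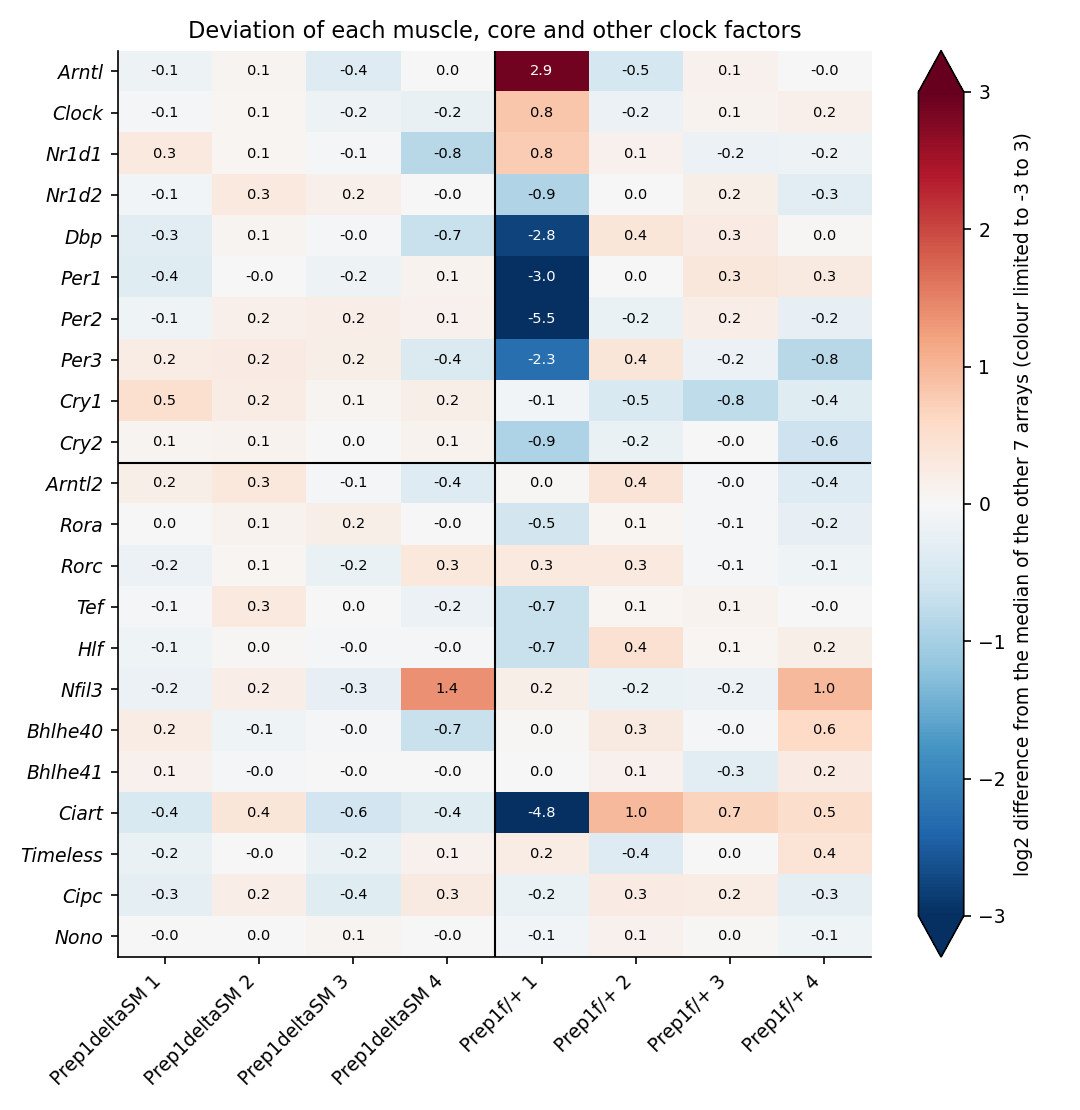
Deviation of the 10 clock genes and of 12 other clock transcription factors (rows) on each array (columns) from the median of the other 7 arrays (log2). Prep1deltaSM arrays are on the left and Prep1f/+ arrays on the right. Among the 10 clock genes, deviations beyond 1 log2 unit occur only on the Prep1f/+ 1 array, with Arntl at 2.90, Per1 at −2.99 and Dbp at −2.77. The Per2 value of −5.52 there is a measured signal not well above background. Among the other factors, Ciart is at −4.83 on the Prep1f/+ 1 array, also a measured signal not well above background. Nfil3 is beyond 1 log2 unit on the Prep1deltaSM 4 array.

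An index of the loop's opposed arms was taken per array as the mean of Per1, Per2, Per3, Nr1d1, Nr1d2 and Dbp minus the mean of Arntl and Clock, each gene centred on its mean over the 8 arrays. It was 0.48, 0.52, 0.75 and 0.29 in Prep1deltaSM muscles, against −3.63, 0.91, 0.47 and 0.21 in Prep1f/+ muscles. The other 7 muscles spanned 0.21 to 0.91, with the genotypes interleaved. The Prep1deltaSM array on the same slide as Prep1f/+ replicate 1 had an index of 0.29, and all 8 arrays were scanned on the same day; the part of slide or scan in the index was not tested. The mouse names in the labels were P54, P58, P70 and P90 for Prep1deltaSM, against P286, P62, P66 and P86 for Prep1f/+, with P286 being replicate 1. Whether that mouse differed in litter, date or hour of collection was not given in the sources used here and was not tested.

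**Figure D4:**
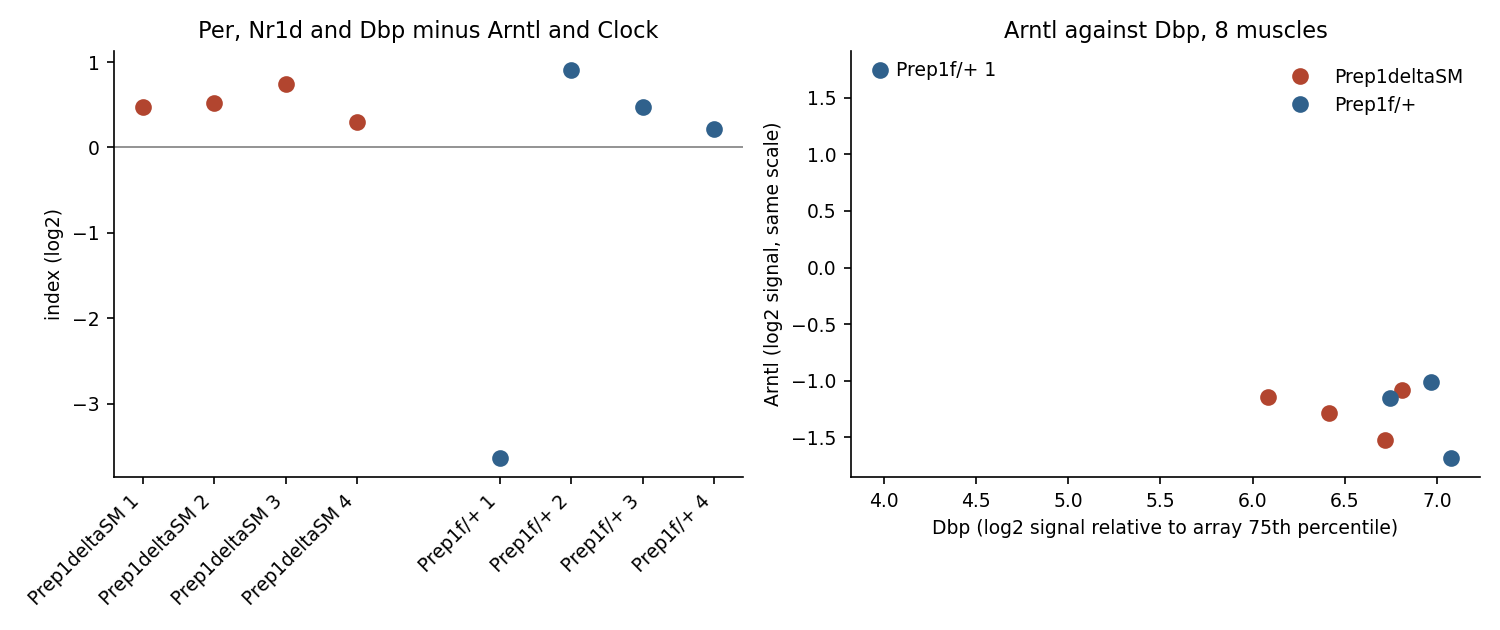
Index of the opposed arms of the clock per muscle (log2, mean of the Per, Nr1d and Dbp genes minus mean of Arntl and Clock, each centred on its 8-array mean), Prep1deltaSM on the left and Prep1f/+ on the right. Of the 8 muscles, 7 lie between 0.21 and 0.91 and Prep1f/+ replicate 1 lies at −3.63.

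Correlations with Dbp were taken over the 8 muscles. Arntl had a Pearson r of −0.95 with Dbp (exact permutation p = 0.0369, Benjamini-Hochberg adjusted p = 0.083 over 9 relations) and a Spearman rho of −0.33 (permutation p = 0.428, adjusted p = 0.642). Per1 (0.95), Per2 (0.95), Per3 (0.91), Nr1d2 (0.86) and Cry2 (0.68) had positive r, and Clock (−0.84), Nr1d1 (−0.52) and Cry1 (−0.26) negative r. Of the 9 relations, 0 passed an adjusted p of 0.05, and 4 had an unadjusted permutation p under 0.05. The 2 muscles farthest from the Dbp median were Prep1f/+ replicate 1 and Prep1deltaSM replicate 4. With both left out, r was −0.16 for Arntl, 0.06 for Per2, 0.09 for Per3 and 0.66 for Per1. It was −0.52 for Nr1d1 and −0.82 for Cry1. For Clock r was then −0.13, for Nr1d2 0.28 and for Cry2 −0.18. The relations of Arntl, Clock, Per2, Per3, Nr1d2 and Cry2 with Dbp thus rested on those samples. With Prep1f/+ replicate 1 alone left out, r was 0.59 for Nr1d1, 0.29 for Per1 and −0.68 for Cry1. It was then −0.27 for Arntl, 0.37 for Clock, −0.10 for Per2, 0.31 for Per3, −0.35 for Cry2 and 0.23 for Nr1d2. The relations of Nr1d1 and Per1 with Dbp thus also depended on the muscles left out, and that of Nr1d1 changed sign.

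The genes other than the clock members whose pattern was most like that of Dbp were sought, as a description. The search was among 1661 genes with an SD of at least 0.5 over the 8 arrays. The highest r belonged to an unannotated transcript (NAP065150-1, 0.98), Gm129 (0.98), AK035727 (0.97), ENSMUST00000084674 (0.96) and E130120C16Rik (0.94). On Prep1f/+ replicate 1, Gm129 (−5.4), AK035727 (−6.1) and ENSMUST00000084674 (−6.8) were under that array's floor of −4.62. In the other 7 muscles AK035727 was −4.8 to −3.8 and ENSMUST00000084674 −4.8 to −3.7, near the array floors of −5.19 to −4.10. The r of AK035727 and ENSMUST00000084674 thus rested on dim signals. Gm129, now named Ciart, encodes a repressor of the activator pair. Over the 7 muscles without Prep1f/+ replicate 1, r with Dbp was 0.91 for NAP065150-1, 0.74 for Gm129, 0.86 for AK035727, 0.69 for ENSMUST00000084674 and 0.68 for E130120C16Rik. The lowest r belonged to Arhgap24 (−0.93), Relt (−0.91), Cldn5 (−0.89), Pde10a (−0.89) and Capn12 (−0.87), and over the 7 muscles these were between −0.33 (Relt) and −0.03 (Pde10a). The high likeness on the negative side was thus not seen without that muscle.

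Other clock transcription factors were tested for 12 of a list of 14, and 0 passed the adjusted test (0 also at an unadjusted limma p under 0.05). Ciart was −1.06, −0.61, −1.19 and −0.98 in Prep1deltaSM muscles, against −5.44, −0.01, −0.31 and −0.45 in Prep1f/+ muscles, with the first Prep1f/+ value not well above background. Apart from that muscle, every Prep1f/+ value was above every Prep1deltaSM value. Its difference was 0.59 with all arrays (limma adjusted p = 0.816) and −0.70 without Prep1f/+ replicate 1 (95% interval −1.10 to −0.31, unadjusted p = 0.00349, adjusted p = 0.207), where 14.2% of all genes had an unadjusted p under 0.05 and 0.00624% passed the adjusted threshold. On the array of Prep1f/+ replicate 1, 4 of the 12 lay outside the range of the other 7, against 28.8% of all genes. Besides Ciart these were Rora (activator at ROR elements), Tef and Hlf (PAR bZIP relatives of Dbp). They were 0.54, 0.67 and 0.67 below the median of the others. Nfil3, a repressor at D-boxes, was instead high in the fourth replicate of each group, at 4.40 in Prep1deltaSM and 4.00 in Prep1f/+, with the other 6 muscles between 2.96 and 3.22. Bhlhe40, an E-box repressor, differed by −0.35 (limma adjusted p = 0.425).

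Kinases, ligases and a protease that set the stability of PER and CRY were tested for 10 of 11, with 0 past the adjusted threshold and 2 higher and 2 lower at an unadjusted p under 0.05, which 15.9% of all genes met in either direction. Gsk3b, a kinase of several clock proteins, differed by 0.35 (limma adjusted p = 0.244), and Prkaa1, the AMPK subunit α1 that phosphorylates CRY, by −0.31 (adjusted p = 0.190, no overlap of the groups). Usp2, a rhythmic ubiquitin protease, was 1.95 in Prep1f/+ replicate 1 and between 2.84 and 3.58 in the other 7 muscles. Of 11 tested genes of a list of rhythmic muscle outputs, 0 passed at either threshold, and on the array of Prep1f/+ replicate 1, 8 lay outside the range of the other 7, against 28.8% of all genes. Among them Coq10b and Tspan4 were 1.24 and 1.06 below the median of the others, both well above background there. Pfkfb3, an activator of glycolysis, differed by −0.78 (limma adjusted p = 0.369), and was lowest in Prep1deltaSM replicate 4 at 2.98.

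Genes that respond to glucocorticoid, fasting or temperature, each of which can also vary with the hour of collection, were counted in the same way. Of 11, 14 and 9 tested genes, 0 in each list passed the adjusted test, with 1, 3 and 0 at an unadjusted p under 0.05, beside 15.9% of all genes. Fbxo32, the ubiquitin ligase atrogin-1, was 2.10, 2.69, 2.96 and 3.17 in Prep1deltaSM muscles, against 4.11, 3.54, 3.49 and 3.30 in Prep1f/+ muscles (difference −0.88, limma adjusted p = 0.193). Slc25a20, the mitochondrial carnitine carrier, differed by 0.39 (adjusted p = 0.176), also without overlap. Pdk4 and Ucp3, both raised by fasting, were lowest in Prep1f/+ replicate 1 at 5.39 and 0.20, with the other muscles at 5.50 to 7.64 and 1.02 to 2.23. Other genes of the fasting list went the opposite way there: Fbxo32 was the highest of the 8, and Angptl4, a secreted inhibitor of lipoprotein lipase, was 1.58, which was 1.10 above the median of the others and inside their range of −0.11 to 1.64. The cold-inducible Cirbp and Rbm3 were highest there, at 3.56 and 3.96, with the others at 2.72 to 3.27 and 3.52 to 3.82. Of the 11 glucocorticoid genes, 5 were below all other muscles in Prep1f/+ replicate 1, and the rest lay inside their range. On that array 28.8% of all genes lay outside the range of the other 7 in either direction. The list's centred mean of −0.46 there was the lowest of the 8. Mt1 and Mt2, metallothioneins, were among the 5, at 2.98 and 1.82. Both were high in Prep1deltaSM replicate 4 (6.47 and 6.27), where the heat shock gene Hspa1a was 4.22. Hspa1a was 3.80 in Prep1f/+ replicate 4 and 0.56 to 2.30 in the other 6 muscles.

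Markers of other cells were set beside the clock values of Prep1f/+ replicate 1. Endothelial markers (5 of 5 tested) had a centred list mean of −0.07 to 0.14 in Prep1deltaSM and of 0.35, −0.24, −0.21 and −0.05 in Prep1f/+ muscles, so that muscle was the highest of the 8, with Cdh5, Kdr and Emcn outside the range of the others. The slow-fibre list (7 of 7) was 0.77 there, under the 1.49 of Prep1f/+ replicate 3, and the fibroblast list (5 of 5) was −0.20, against 0.26 to 0.31 in the other Prep1f/+ muscles. In the same muscle the tendon list was also the highest of the 8, at 0.50, next to 0.44 in Prep1f/+ replicate 4. The Schwann list (4 of 4) was the lowest of the 8 there, at −0.38, next to −0.29 in Prep1f/+ replicate 2. Beside the Cry1 and Cry2 differences, the median difference between genotypes was −1.03 for the adipocyte list (5 of 6 tested), −0.53 for tendon (5 of 5), −0.51 for slow fibre (7 of 7), −0.48 for leukocyte (5 of 7), −0.42 for fibroblast (5 of 5) and 1.03 for erythroid markers (3 of 3). At an unadjusted limma p under 0.05, 2 of 5 fibroblast, 2 of 5 leukocyte, 1 of 5 tendon and 0 of the adipocyte, slow-fibre and erythroid markers were counted, beside 15.9% of all genes, and 0 passed the adjusted threshold. Their part in the clock values was not tested.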

How the data were processed

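Total RNA from 8 tibialis anterior muscles was read on 8 Agilent 1-colour arrays. The deposited values are spot intensities (gProcessedSignal), which Feature Extraction 10.5.1.1 with protocol GE1_107_Sep09 made by background subtraction and spatial detrending without normalization between arrays, per the file headers; version 9.1 of the same software stands in the submitters' processing notes. Coordinates of probes are mm9, per the file headers. A deposited table of processed intensities, linear with column medians of 12.66 to 13.25, served as an alternative. How the authors normalized it is not given in the sources used here. Of its 32812 rows, 26228 were used. These lay within 0.1 log2, on every array, of the quantile-normalized values made here, after each array's median offset was removed. Its rows are thus like that alternative by selection, and it is not an independent check.

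From these intensities, log2 values were taken relative to each array's 75th percentile. Control and non-uniform spots were left out, spots of a probe were averaged, a probe was kept if 4 or more of the 8 arrays had it well above background (24488 of 41174), and a gene with several kept probes was represented by the brightest. Differences were fitted in limma 3.58.1 (R 4.3.3) over 16016 genes with lmFit and eBayes, and p-values were adjusted by Benjamini-Hochberg over all of them. The fit was tested on simulated data. Single values were also tested by exact permutation of the 8 labels. The number of arrays limits the precision, and since nothing in the labels says more of the animals than their numbers, p-values measure the spread between these samples.

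The members and gene lists were chosen with earlier results of these data known. All members and their probes are named, with Pknox1. From each other list, the 2 genes with the smallest p and the 2 with the widest range over the arrays are named. The 5 non-member genes most like Dbp and the 5 least like it are named too. Genes named only for lying far from the rest in Prep1f/+ replicate 1 (Tef, Hlf, Tspan4, Angptl4) were chosen after their values were seen. Slides were tried as a block, and Prep1f/+ replicates were numbered in accession order.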

Additional observations from a re-analysis of the deposited data

Results flagged for a closer look

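In groups of 4, a muscle was set apart when its gap to the nearest of the other 3, divided by the group's range, exceeded Dixon's critical value of 0.829. The groups tested were both genotypes' values of Pknox1, the 10 clock genes, the named genes of the other pathway lists, the list means and the index, but not the genes picked for likeness to Dbp. Of these 90 groups, 10 had such a muscle, and 6 of the 10 were Prep1f/+ replicate 1. Chance sets apart about 1 in 20 groups that are independent and not chosen by their values. Some genes here were named for a wide range over the arrays or after their values were seen. The index and list means also reuse the same genes, so the count of 10 cannot be set against that rate. In Prep1f/+ replicate 1 the ratio was 0.9 for Per1, 0.942 for Per2, 0.893 for Dbp, 0.919 for Ciart and 0.869 for Tef, all lowest there, and 0.848 for the index of the clock's opposed arms, also lowest; Per2 and Ciart were not well above background there, and the index is built from genes counted here. Tef was among genes named after their values were seen. Across all 16016 genes that muscle was set apart in this way for 1.42%, and for 3 of the 10 clock members.

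Per3 was set apart low in Prep1deltaSM replicate 4 (ratio 0.878), at −0.87 with the other Prep1deltaSM muscles between −0.44 and −0.38. Mt1 was set apart high in the same muscle (0.841). Angptl4, also named after its values were seen, was set apart low in Prep1f/+ replicate 2 (0.912), at 0.48 with the other 3 between 1.54 and 1.64. Cirbp was set apart low in Prep1deltaSM replicate 2 (0.861), at 2.76 with the other 3 between 2.93 and 2.96.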

How the results depend on the processing

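The count of clock members past the adjusted threshold was 0 under all 22 alternatives. Cry1, Cry2, Per2 and Nr1d2 had a positive and Nr1d1 a negative difference in every alternative that gave a value. Some of these, such as slide as a block or a trended robust variance, cannot change the difference, so its sign could not turn there. With every probe as its own row, only the probe used for each gene was followed. The second Cry1 probe gave −0.15, and the dimmer Per2 probe −0.22 without Prep1f/+ replicate 1. Some differences lay near 0: Nr1d2 ran from 0.00015 (without Prep1f/+ replicates 1 and 4) to 0.49 and Per2 from 0.0576 to 1.98. Nr1d1 ran from −0.56 to −0.053, and Cry1 from 0.11 to 0.76. Limma adjusted p-values over these alternatives were 0.10 to 0.606 for Cry1, 0.206 to 0.520 for Cry2, 0.295 to 0.936 for Dbp and 0.378 to 0.831 for Per1. The count over all genes, 1 in the reported fit, was 26 with normexp and quantile normalization, 20 with a trended robust variance, 22 with array weights, 0 with slide as a block and 0 without Prep1f/+ replicates 1 and 4; leaving out each array in turn gave 0 to 5. Pknox1 had adjusted p-values of 0.00177 to 0.0738.

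Leaving out each array in turn, the range was −0.0191 to 1.49 for the index difference (1.02 with all arrays, −0.0191 without Prep1f/+ replicate 1), −1.12 to 0.0242 for Arntl, −0.31 to 0.80 for Per1, −0.42 to 0.61 for Dbp, −0.70 to 1.11 for Ciart, −0.0623 to 0.188 for Prkaa2, −0.15 to 0.44 for Coq10b, −0.49 to 0.26 for Pdk4, −1.01 to 0.33 for Hspa1a, −0.65 to 0.66 for Hspa1b, −0.24 to 0.32 for Nfil3, −0.0438 to 1.03 for Mt1, −0.048 to 1.40 for Mt2, −0.0371 to 0.219 for Tef, −0.25 to 0.115 for Hlf and −0.35 to 0.126 for Tspan4. Without Prep1f/+ replicates 1 and 4 together, which leaves 2 Prep1f/+ arrays, the median difference of the members was −0.0211, that of the index −0.18, and those of single genes were 0.0886 for Arntl, −0.28 for Per1, −0.0799 for Per3, −0.52 for Dbp, −0.80 for Ciart, −0.15 for Usp2, −0.28 for Prkaa2, 0.71 for Hspa1a and −0.0623 for Tef. Other turned signs were Ciart at −0.011 with normexp, Clock at 0.0011 and Rbm3 at 0.0386 with probes averaged, Clock at 0.31 in the deposited table, Prkaa2 at −0.10 with array weights, Hlf at 0.0115 and Tspan4 at 0.0478 with quantile normalization, Hlf at 0.0117 and Tspan4 at 0.0513 in the deposited table, and Tspan4 at 0.0388 with normexp; the cause was not tested.

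The index of Prep1f/+ replicate 1, −3.63, was −2.09 with normexp and −2.83 in the deposited table. There 7 members, without Per2, Cry1 and Cry2, had a row kept for matching the quantile-normalized values. The value from that table is therefore not independent support. Raising signals to the array's floor, an alternative chosen after seeing the data, gave −3.32. The labels pair no mice; with slide as a block, each slide holding an array of each genotype, 0 members and 0 genes passed the adjusted threshold.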

Other observations

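Genes outside the clock lists that lay far from the other muscles in Prep1f/+ replicate 1 included Spon2, a secreted matrix protein, at 1.68 with the other 7 muscles between −2.64 and −0.71. Csrp3, the muscle LIM protein of the Z-disc, was 6.78 there, with the others between 2.43 and 4.84. Both were chosen after their values were seen, among the 20 greatest deviations of that array over 16016 genes, a set that also held Per1 and Arntl.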
